A study of Mus musculus with 6 samples.

Results

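The genes described here encode the proteins of the cytosolic ribosome. They were chosen by symbol from the 16411 genes listed with the raw counts: symbols of Rps or Rpl followed by a digit, without pseudogene symbols (ending in -ps and a number) and without the Rps6k kinases, plus Rplp0, Rplp1, Rplp2 and Rpsa. This gave 86 genes, of which 31 belong to the small subunit, 44 to the large subunit and 3 to the stalk of the large subunit, 7 carry the symbol of a paralogue of a subunit gene, and 1, Rps19bp1, encodes a protein named for binding to RPS19. UMIs (unique molecular identifiers, each standing for a captured RNA molecule) were found for 84 of the 86, and these 84 all passed the filter on low counts of the test across genes, which left 12227 genes. The paralogues Rpl39l and Rpl3l were at 0 in every cell.

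The cells came from hypothalami of male ob/ob mice, which lack functional leptin and are obese and diabetic, aged 11 weeks. Each mouse received 3 µg of FGF1 R50E, a fibroblast growth factor 1 carrying a substitution, into a cerebral ventricle and was killed on day 5. Whole cells were dissociated and run on the 10x Chromium platform with 3′ chemistry, and a sample is 1 mouse. Of 6 labelled mice, 4 had cells in the tables (mice 3, 4, 30 and 34), and mice 12 and 37 were not analysed here. All of these mice had the same treatment, so no effect of R50E can be read from them, and the comparisons below are between cell types of the same mice. Cell types were those given by the authors for each cell: astrocytes, tanycytes, ependymal cells, oligodendrocytes, oligodendrocyte precursor cells, committed oligodendrocyte precursors, endothelial cells, microglia and vascular leptomeningeal cells.

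Ribosomal proteins assemble with ribosomal RNA into a small subunit, which reads the messenger RNA, and a large subunit, which joins amino acids. Their messenger RNAs are short, abundant and share a pyrimidine tract at the 5′ end through which growth signals set their translation, and vertebrate cells make most of the proteins in equal amounts. Some subunit genes have a paralogue, such as Rpl22l1 for Rpl22, whose product can take the place of the first in the ribosome. Single-cell studies usually record the part of a cell's UMIs that falls on these genes as a quality measure.

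Of the 86 genes, 65 had a promoter in RefSeq (build GRCm38.p6, 250 bases before to 50 after the start), 10 of them at more than 1 start, and a gene was counted if any of its starts had a match. The letters CTTTCC, searched on both strands and typical of the pyrimidine tract, were found for 35 of the 65 genes (53.8%) and for 29.3% of all 27025 genes with a promoter, and on the strand of the gene within 10 bases before to 20 after the start for 16.9% and 1.52%. CCGGAAG, a core of sites for ETS factors, was in 40.0% against 9.93%, and TCTCGCG in 21.5% against 2.92%. A match of letters is not a bound site. The 60 bases around the start (30 on each side) follow for genes on which the results below turn. The copies Rps27 and Rps27rt share a run of 29 bases there. Rpl10, Rplp0, Rpl15, Rpl22 and Rps26 are among the largest changes of the comparisons, and Rpl22l1 is the paralogue of Rpl22, for which the windows of both RefSeq starts are given. Capitals mark CTTTCC.
Rps27 (chr3:90213619-90213678, minus strand): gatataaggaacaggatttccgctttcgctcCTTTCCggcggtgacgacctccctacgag
Rps27rt (chr9:114982710-114982769, minus strand): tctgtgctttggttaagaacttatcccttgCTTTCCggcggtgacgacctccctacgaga
Rpl15 (chr14:18270957-18271016, minus strand): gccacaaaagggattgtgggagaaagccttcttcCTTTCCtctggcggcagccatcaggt
Rpl10 (chrX:74270786-74270845, plus strand): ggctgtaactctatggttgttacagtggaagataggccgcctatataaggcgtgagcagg
Rplp0 (chr5:115559437-115559496, plus strand): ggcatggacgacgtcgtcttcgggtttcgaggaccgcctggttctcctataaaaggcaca
Rps26 (chr10:128626477-128626536, minus strand): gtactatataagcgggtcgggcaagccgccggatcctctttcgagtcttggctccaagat
Rpl22, upstream start (chr4:152324406-152324465, plus strand): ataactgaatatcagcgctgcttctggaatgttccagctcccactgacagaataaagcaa
Rpl22, downstream start (chr4:152325696-152325755, plus strand): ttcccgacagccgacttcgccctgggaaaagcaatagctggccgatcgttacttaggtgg
Rpl22l1 (chr3:28805478-28805537, plus strand): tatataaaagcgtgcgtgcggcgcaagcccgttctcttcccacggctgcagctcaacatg
The letters are in 3 of these 9 windows, on the strand of the gene.

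In all, 20151 cells with 23971102 UMIs were summed by mouse and cell type. The mice gave 7386, 3180, 3005 and 6580 cells, and a sum entered the test across genes with at least 20 cells, which kept 4 mice in 8 types and only mouse 30 in vascular leptomeningeal cells. Marker lists of the 9 types were each highest in the type of their name. The pericyte genes Kcnj8 and Rgs5, however, summed to between 1793 and 2360 CPM (UMIs scaled to the total of the sum) in endothelial cells and at most 40.0 CPM in astrocytes, and the haemoglobin genes Hbb-bs and Hba-a1 were highest in mouse 30 in 6 of the 8 types. Astrocyte counts of mice 3 and 34, and of mice 4 and 30, were closer to each other (chi-square per degree of freedom 1.85 and 1.78) than any other pair (3.28 to 5.23). The labels name no batch for a mouse, so values are given by mouse. In all, 391 cells carried a barcode also found in another mouse.

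The ribosomal protein genes took up 12.2% of all UMIs, 2932224 in number, and the share differed by cell type. In mice 3, 4, 30 and 34, it was 16.2%, 17.1%, 15.5% and 17.0% in microglia and 16.1%, 15.8%, 14.3% and 16.7% in endothelial cells. Tanycytes, radial glia at the base of the third ventricle, had 14.4%, 15.3%, 13.8% and 15.9%, and the neighbouring ependymal cells had 14.5%, 12.8%, 11.8% and 14.8%. Astrocytes had 8.71%, 10.6%, 9.92% and 9.46%, all below every mouse's value in those 4 types.

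The oligodendrocyte lineage lay close to the astrocytes. Its means were 11.2% ± 0.807 (SD, n = 4) in precursor cells, 10.6% ± 0.760 in committed precursors and 10.6% ± 0.847 in oligodendrocytes, with overlapping mice. Vascular leptomeningeal cells had 14.7% ± 1.98, from sums of 6 to 44 cells. Microglia were the highest type in mice 3, 4 and 30, and in mouse 34 vascular leptomeningeal cells (17.1%) came just before them, within the Wilson interval. Mouse 30 was lowest in every type but astrocytes, where mouse 3 was lowest. Wilson 95% intervals of single sums, which cover counting error only, reached at most 0.348 percentage points to a side outside the vascular leptomeningeal cells. This is small beside the gap from astrocytes to microglia, but not beside every difference. In mouse 3, microglia (16.03% to 16.43%) and endothelial cells (15.99% to 16.18%) overlapped. In mouse 34, so did committed precursors (11.33% to 11.57%) and precursor cells (11.40% to 11.59%).

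**Figure D1:**
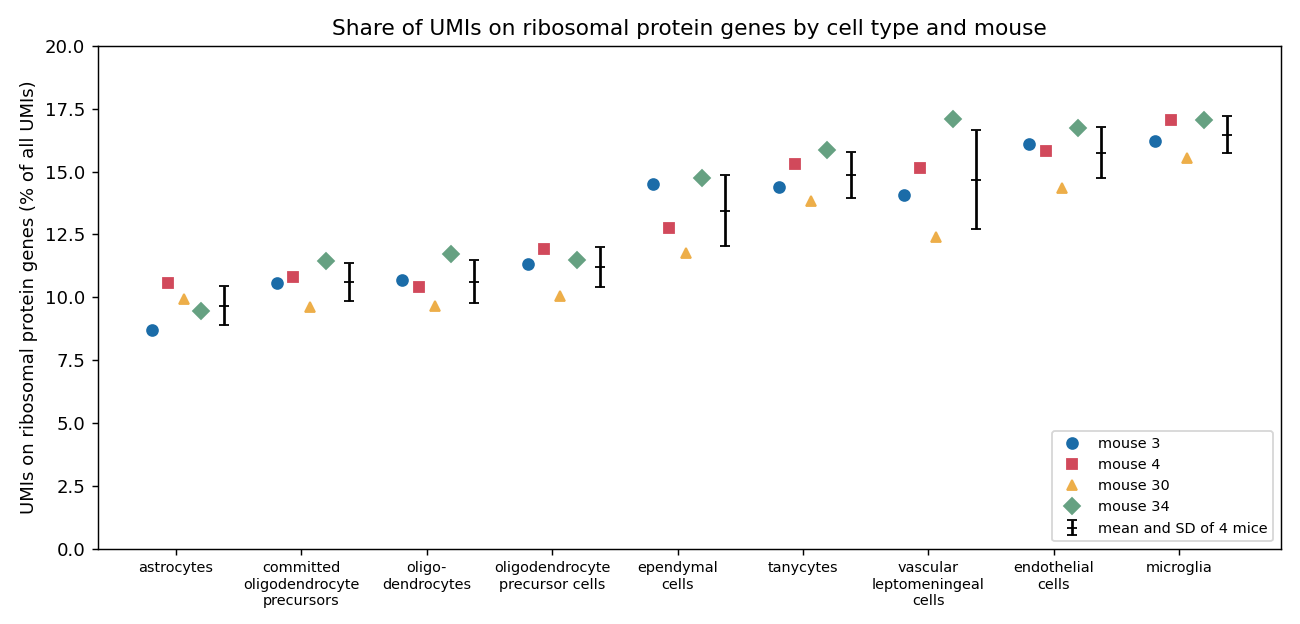
Share of UMIs on the ribosomal protein genes (% of all UMIs, vertical axis) in 9 cell types (horizontal axis), with a symbol for each of 4 mice and the mean ± SD beside them. Astrocytes and the oligodendrocyte lineage sit at or below 11.9%, and tanycytes, endothelial cells and microglia at or above 13.8%.

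Within a mouse, the share was higher in tanycytes than in astrocytes by 5.67, 4.75, 3.93 and 6.41 percentage points, and higher in endothelial cells than in astrocytes by 7.37, 5.27, 4.43 and 7.29. Astrocytes minus ependymal cells gave -5.78, -2.19, -1.86 and -5.31 points (mean -3.79 ± 2.04, SD), below 0 in 4 of 4 mice. In these 3 comparisons the mice of the types did not overlap, and the two-sided exact sign-flip permutation test gave p = 0.13, the smallest that 4 mice allow. Tanycytes exceeded ependymal cells by 1.41 ± 1.18 points, in 3 of 4 mice, with mouse 3 at -0.107 (exact p = 0.25). Committed precursors minus precursor cells gave -0.740, -1.13, -0.439 and -0.0441 points (mean -0.587, exact p = 0.13), and oligodendrocytes differed from committed precursors by 0.0102 ± 0.289 points (exact p = 1), with 3 mice higher and mouse 4 lower. Mitochondrially encoded genes, which share the total, took 8.30% ± 1.08 of UMIs in committed precursors, 12.5% ± 1.12 in precursor cells and 13.5% ± 1.13 in oligodendrocytes. With these genes taken out of the total the difference of committed precursors from precursor cells was -1.23 points and that of oligodendrocytes from committed precursors 0.713 points, and their part in the result was not tested further.

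The balance of the subunits was nearly constant. UMIs on small-subunit genes were between 0.769 ± 0.00868 (SD, n = 4; oligodendrocyte precursor cells) and 0.820 ± 0.00996 (oligodendrocytes) of those on large-subunit genes in 7 of the 8 well-filled types, and 0.874 ± 0.0274 in microglia. Counted per cell, astrocytes carried 93.8 ± 16.0 UMIs on these genes, tanycytes 186 ± 23.9, ependymal cells 199 ± 49.3 and endothelial cells 208 ± 31.3. Committed precursors carried 203 ± 71.0 although their share was among the lowest, and they had the most UMIs per cell, 1894 ± 576. A share of UMIs also moves with the other genes of the cell.

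The deposited percentage of ribosomal UMIs per cell, the usual quality measure, was recomputed from the raw counts. It equalled, in 20151 of 20151 cells, the share of 107 symbols of Rps or Rpl and a digit. It therefore included 15 pseudogene symbols (31215 UMIs) and 10 Rps6k kinase symbols (3758 UMIs), and left out Rplp0, Rplp1, Rplp2 and Rpsa, with 166241 UMIs. The share of the 86 genes was higher than it by 0.540 percentage points on average and differed from it by at most 2.24 in a cell. Within mouse and type, the rank correlation of both measures was between 0.982 and 0.994 over 31 sums of at least 50 cells (a description, as the measures share most genes).

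No cell exceeded 19.98% in the deposited percentage, so that the cells end at 20%. This edge met the types unevenly. Above 18% were 22.4% of microglia, 18.7% of endothelial cells, 5.50% of tanycytes and 3.14% of ependymal cells, but 0.0338% of astrocytes. The median cell had 15.8% in microglia and in endothelial cells, 14.2% in tanycytes, 12.9% in ependymal cells and 8.73% in astrocytes. With the cells above 18% left out, an alternative added after seeing the data, the mean share was 15.5% in microglia, 15.2% in endothelial cells, 14.6% in tanycytes and 9.66% in astrocytes. The part of cells that would lie above 20% was not tested.

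**Figure D2:**
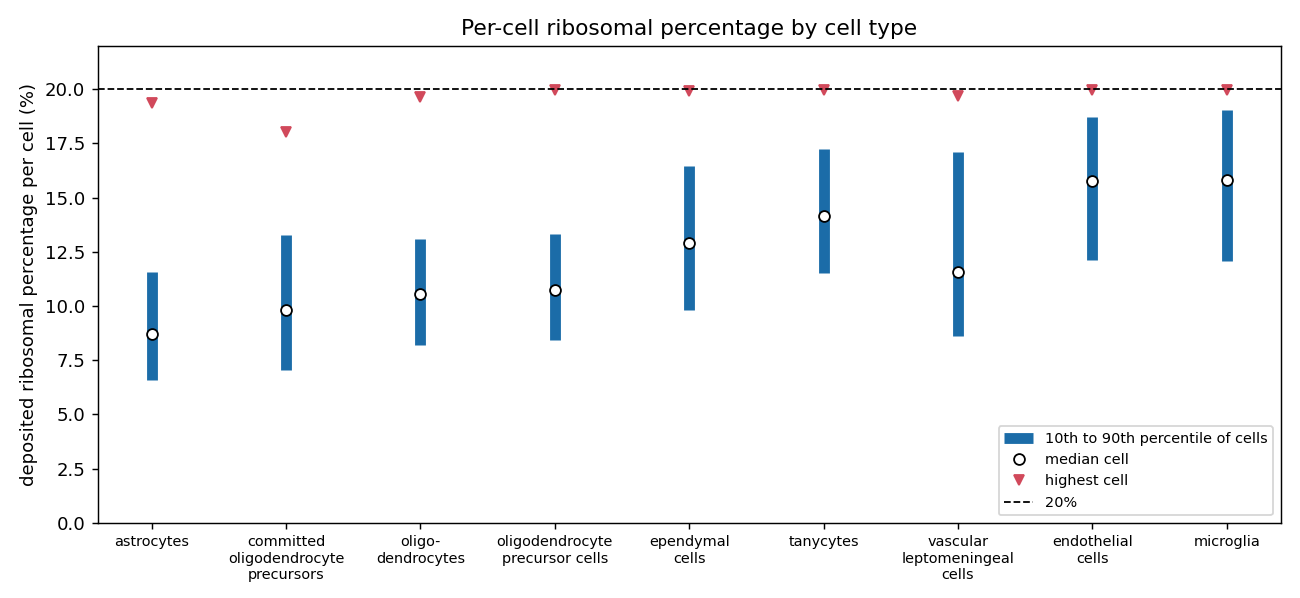
Deposited ribosomal percentage per cell (vertical axis, %) in 9 cell types, with bars from the 10th to the 90th percentile, the median cell as a circle and the highest cell as a triangle. The bars of endothelial cells and microglia reach 18.7% and 19.0%, close under the dashed line at 20%, and that of astrocytes ends at 11.6%.

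Within a type, the rank correlation of the share of these genes with UMIs per cell lay between -0.398 and 0.201 (median -0.0287) over the 31 sums. With the mitochondrial percentage it lay between -0.152 and 0.313 and was above 0 in 26 of the 31. These are descriptions over cells of a library, which share its depth, and carry no p.

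The genes differed widely in UMIs. CPM values are not divided by length, since a 3′ read counts a molecule once, but they depend on how many reads the counting could assign. The highest mean levels over the 9 types were those of Rpl41 (5384 CPM), Rps29 (4904 CPM), Rplp1 (3583 CPM), Rps27 (3570 CPM) and Rpl37 (3404 CPM), and the 10 genes with the most UMIs held 26.8% of all UMIs on these genes. The subunit genes with the lowest means were Rps2 (201 CPM), Rpl15 (389 CPM), Rpl5 (406 CPM), Rpl36al (443 CPM) and Rpl7a (498 CPM). Rpl5 takes up the ribosomal RNA of the large subunit with Rpl11, and Rpl41 encodes a peptide of the large subunit that is among the shortest proteins known.

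Copies limit this order. Of the 85 genes found in the GENCODE vM21 transcripts, 39 had over 50% of the 60-base words of their last 400 bases in a transcript of another gene, and 20 had none. Of the 5 lowest subunit genes, Rpl5 had 100% shared, Rpl7a 85.0%, Rps2 80.9%, Rpl36al 77.1% and Rpl15 none. Of the 5 highest genes, Rps27 had 72.7%, Rpl41 59.8%, Rplp1 52.8%, Rps29 33.8% and Rpl37 none. Across the 83 of these genes with a UMI, the rank correlation of shared words with UMIs was -0.146, a description over genes. How reads that fit several genes were counted is not given in the sources used here. Levels of genes with many shared words are therefore uncertain. The 15 pseudogene symbols each held between 0% and 18.2% (Rpl23a-ps3) of the UMIs of the symbol and its gene together, with 10.1% for Rpl10-ps3, 8.91% for Rps26-ps1 and 1.32% for Rpl13-ps3.

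Across the 8 well-filled types, 41 of the 84 genes had their highest mean in microglia, 28 in endothelial cells, 9 in tanycytes, 3 in committed precursors and 3 in oligodendrocyte precursor cells. The lowest mean was in astrocytes for 49, in committed precursors for 22, in oligodendrocytes for 12 and in endothelial cells for 1 (Rps19bp1). No such count over all genes is given here. The counts partly restate the share of the group, since the genes of a sum share its total. For subunit genes the highest type exceeded the lowest 1.92-fold at the median, from 1.47-fold to 3.44-fold (Rplp0). The genes that went against the common order are described with the comparisons.

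**Figure D3:**
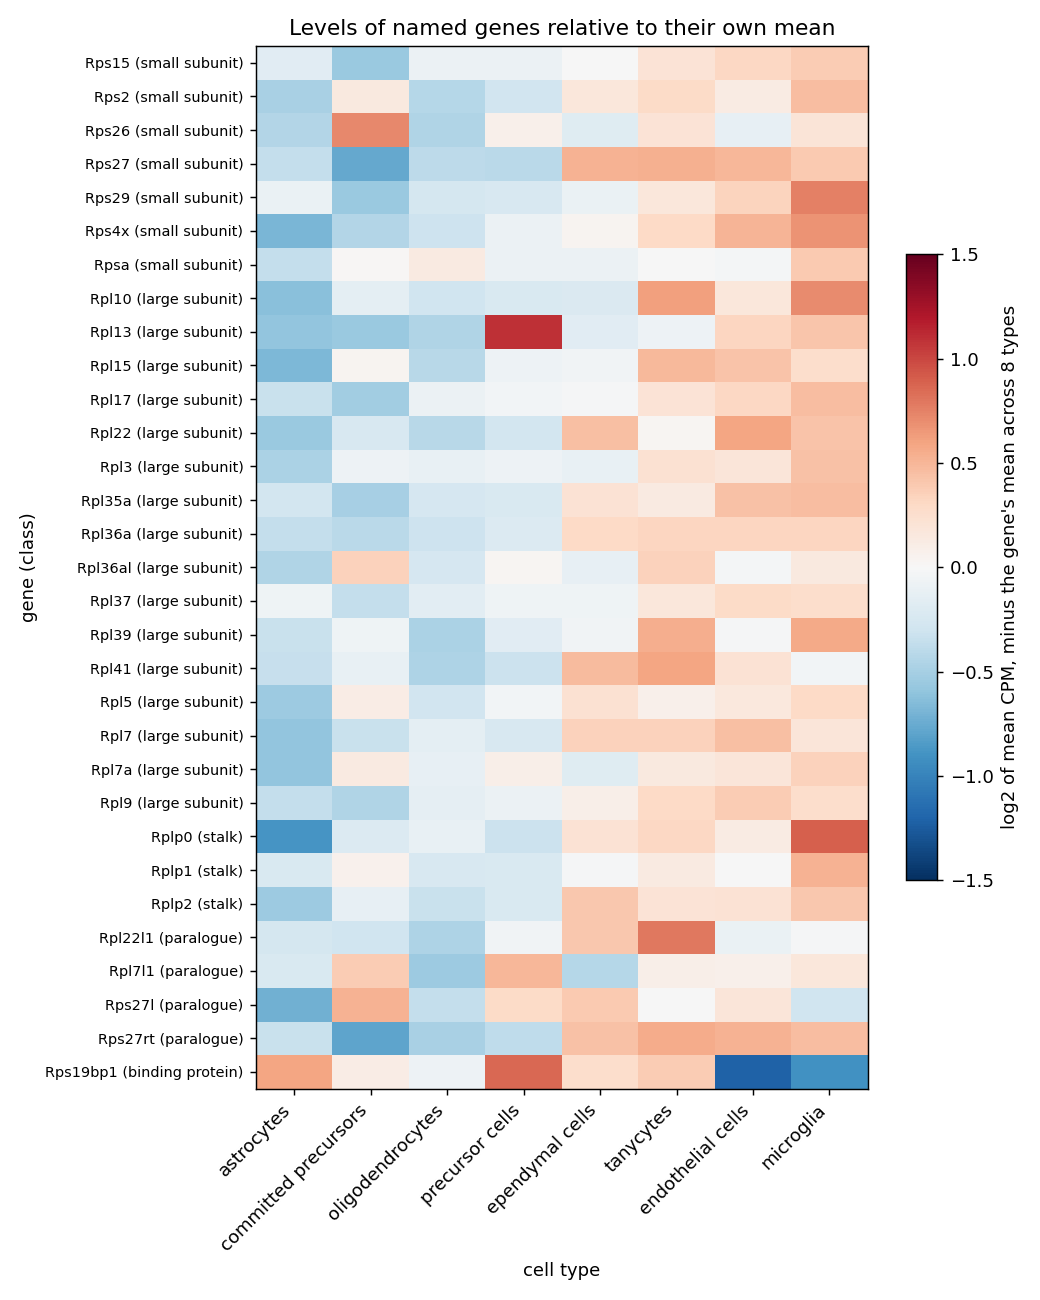
Mean CPM of the named genes in 8 cell types (columns) as log2, less the mean of the gene over those types; red is above and blue below that mean. Most genes are blue in astrocytes and red in endothelial cells and microglia, whereas Rpl13 peaks in oligodendrocyte precursor cells (1.10), Rps26 in committed precursors (0.72) and Rpl22l1 in tanycytes (0.79).

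Single genes were tested with edgeR in a fit over all types with the mouse as a block, and a gene is said to be higher or lower where its Benjamini-Hochberg adjusted p over 12227 genes was below 0.05. Tanycytes were compared with astrocytes first, both being glia. Of the 84 genes, 82 were higher in tanycytes (97.6%), against 23.1% of all tested genes, and 0 were lower, against 20.8%. The median log2 fold change was 0.62 (-0.02 over all genes), and 31 of 31 small-subunit, 44 of 44 large-subunit and 3 of 3 stalk genes were higher. For all 82 the CPM was higher in tanycytes in 4 of 4 mice. Without a call were Rps19bp1 (-0.20, adjusted p = 0.590) and Rpl7l1 (0.29, adjusted p = 0.145).

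The differences from astrocytes were widest for Rpl10, Rplp0 and Rpl15. Rpl10, a protein of the large subunit that joins it last in the cytoplasm, was at 2254, 2307, 1921 and 2459 CPM in the tanycytes of mice 3, 4, 30 and 34 and at 907, 983, 951 and 960 CPM in their astrocytes. The types did not overlap, and the log2 fold change was 1.21 (SE 0.0807, adjusted p = 1.60e-24). Rplp0, the base of the stalk to which elongation factors bind, was at 954, 1083, 1009 and 967 CPM against 398, 450, 488 and 417 CPM (log2 fold change 1.18, SE 0.0883, adjusted p = 1.46e-21). Rpl15 was at 375, 635, 579 and 465 CPM against 159, 285, 294 and 183 CPM (log2 fold change 1.16, SE 0.0940, adjusted p = 1.06e-19). Its spread between mice was wider than that of Rpl10, with SDs of 116 and 69.3 CPM on means of 514 and 230 CPM, against 227 and 31.7 CPM on means of 2235 and 950 CPM. The last 400 bases of Rpl10 are shared with transcripts of 11 other genes over their whole length.

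Endothelial cells, which line the vessels, were compared with astrocytes as well. Of the 84 genes, 79 were higher in endothelial cells (94.0%; 23.8% of all genes) and 1 was lower (1.19%; 23% of all genes), with a median of 0.74 (-0.05 over all genes). This comparison and the one before share the astrocyte sums, and a difference between them was not tested. The pericyte genes named above move with it, and their part was not tested. Rps4x, a small-subunit protein of the X chromosome, was at 1983, 1586, 1564 and 1886 CPM in endothelial cells and at 724, 768, 861 and 728 CPM in astrocytes (log2 fold change 1.19, SE 0.0876, adjusted p = 5.28e-22). The types did not overlap across mice.

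No call was made for 4 genes in endothelial cells against astrocytes. They were Rps21 (0.01), Rpl22l1 (0.14), Rplp1 (0.18) and Rpl7l1 (0.30), with adjusted p of 0.917, 0.221, 0.0851 and 0.289. The lower gene was Rps19bp1, at 3.43, 0, 11.4 and 4.91 CPM against 12.7, 20.6, 22.01 and 13.99 CPM (log2 fold change -1.68, SE 0.491, adjusted p = 0.00275). It rests on 302 UMIs in all cells, and its fitted value depends on the prior count where a sum is at 0.

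Ependymal cells carry the cilia that move the ventricular fluid, and 70 of the 84 genes were lower in astrocytes than in them (83.3%; 26.1% of all genes) and 0 were higher (22.8% of all genes). With sums thinned to equal totals 37 were lower. The median was -0.43 (0.03 over all genes). By mouse, the median of log2 CPM ratios was -0.75, -0.30, -0.28 and -0.68 in mice 3, 4, 30 and 34, below 0 in 4 of 4 mice. Rplp0 was at 398, 450, 488 and 417 CPM in astrocytes and at 990, 863, 877 and 1039 CPM in ependymal cells (log2 fold change -1.05, SE 0.0925, adjusted p = 6.55e-18). Rps27l, a paralogue of Rps27 that p53 induces, was at 194, 123, 172 and 191 CPM against 393, 341, 392 and 348 CPM (-1.004, SE 0.110, adjusted p = 1.73e-13). Rpl22 was at 362, 436, 360 and 356 CPM against 875, 702, 643 and 837 CPM (-0.97, SE 0.0932, adjusted p = 6.78e-16).

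Among the 14 genes with no call were abundant ones. Rps29 (0.05, adjusted p = 0.645), Rpl37 (0.06, adjusted p = 0.566), Rps21 (-0.03, adjusted p = 0.751) and Rplp1 (-0.12, adjusted p = 0.273) were near 0. Rps29 stood at 4387 ± 1425 CPM (SD, n = 4) in astrocytes and 4380 ± 896 CPM in ependymal cells.

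**Figure D4:**
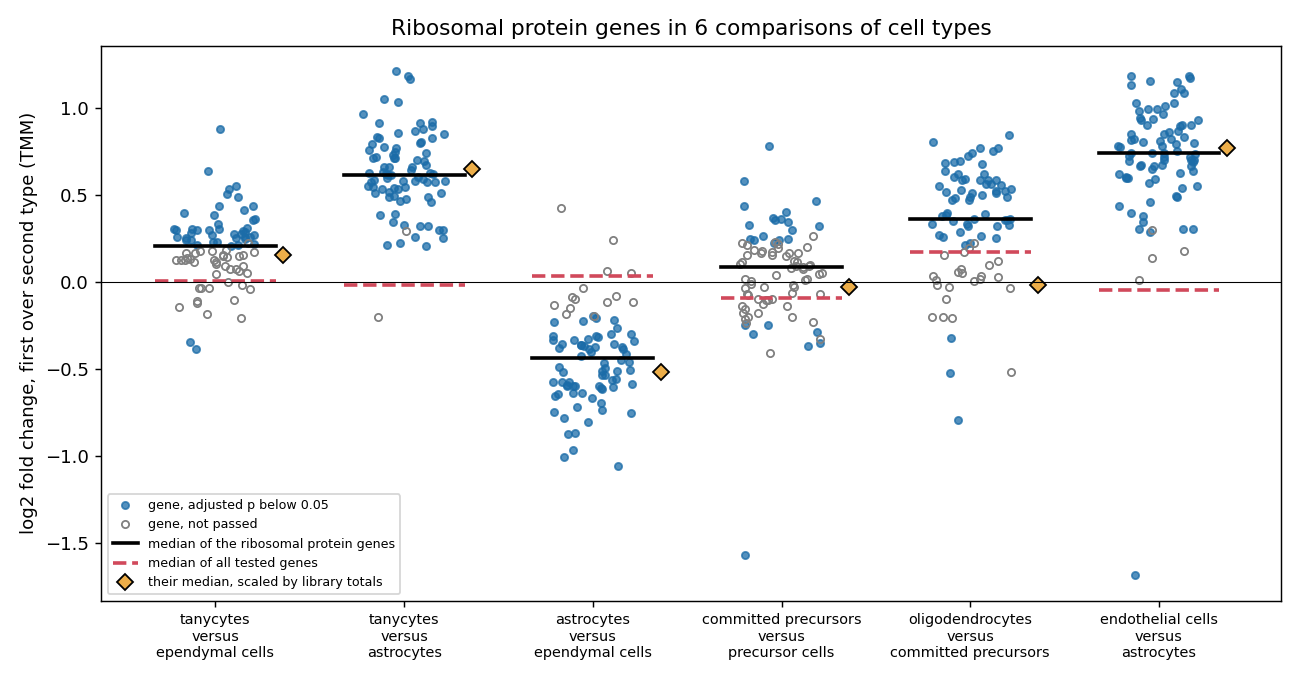
Log2 fold changes of 84 ribosomal protein genes (points; filled where the adjusted p was below 0.05) in 6 comparisons of cell types, with their median (black line), the median of all 12227 tested genes (dashed) and their median with library totals in place of TMM scaling (diamond). The medians of 0.62 and 0.74 over astrocytes stand apart from all genes under either scaling, while that of oligodendrocytes over committed precursors falls from 0.36 to -0.02.

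Tanycytes and ependymal cells are both in contact with the ventricle. Of the 84 genes, 42 were higher in tanycytes (50%; 15.3% of all genes) and 2 were lower (2.38%; 21.3% of all genes), with a median of 0.21 (0.01 over all genes). By mouse the median was -0.01, 0.28, 0.26 and 0.10. The count of higher genes was 26 without mouse 4 and 21 without mouse 30. Without the mouse in the model it was 10. The counts were 23 higher and 7 lower with RLE size factors, 35 and 5 with library totals, and 25 and 7 with DESeq2, which changes the test as well as the scaling. Of the 44 called genes, 36 had CPM in the direction of the call in 4 of 4 mice. Large-subunit genes were higher in 24 of 44 and lower in 1, and small-subunit genes were higher in 15 of 31 and lower in 0.

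Rpl10 led again, at 2254, 2307, 1921 and 2459 CPM in tanycytes against 1407, 1146, 998 and 1499 CPM in ependymal cells, without overlap (log2 fold change 0.88, SE 0.0816, adjusted p = 2.70e-16). Rpl39, a small basic protein beside the exit of the peptide tunnel, was at 4128, 3382, 2867 and 4449 CPM against 2944, 2168, 1930 and 2812 CPM (0.64, SE 0.0781, adjusted p = 3.01e-11). Rpl15 was at 375, 635, 579 and 465 CPM against 294, 372, 399 and 352 CPM (0.55, SE 0.0975, adjusted p = 1.67e-06). For Rpl39 and Rpl15 the types overlapped across mice, though tanycytes were higher within each of the 4. The 2 genes that were lower were Rpl22 (-0.38, SE 0.0886, adjusted p = 0.000206) and Rps27l (-0.34, SE 0.103, adjusted p = 0.00475), each lower in tanycytes in 4 of 4 mice.

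Rpl22 and its paralogue Rpl22l1 thus went apart. Rpl22l1 was at 1468, 1448, 1406 and 1547 CPM in tanycytes and at 1132, 1045, 1080 and 1215 CPM in ependymal cells (log2 fold change 0.44, SE 0.0814, adjusted p = 4.89e-06), without overlap. Rpl22 was at 610, 529, 476 and 652 CPM in tanycytes and at 875, 702, 643 and 837 CPM in ependymal cells. The UMIs of Rpl22l1 over those of Rpl22 came to 2.62 ± 0.278 (SD, n = 4) in tanycytes, 1.87 ± 0.0595 in astrocytes and 1.48 ± 0.158 in ependymal cells. They came to 1.13 ± 0.189 in microglia and 0.960 ± 0.169 in endothelial cells. The lowest tanycyte mouse (2.37) lay above the highest of astrocytes (1.94) and of ependymal cells (1.68), but oligodendrocyte precursor cells (1.56 to 2.53) overlapped tanycytes through mouse 30. The ranges of endothelial cells (up to 1.19) and microglia (0.939 to 1.37) overlapped too. A 3′ end is shared for 67.7% of the words of Rpl22l1, with 4 other genes, and for none of Rpl22.

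**Figure D5:**
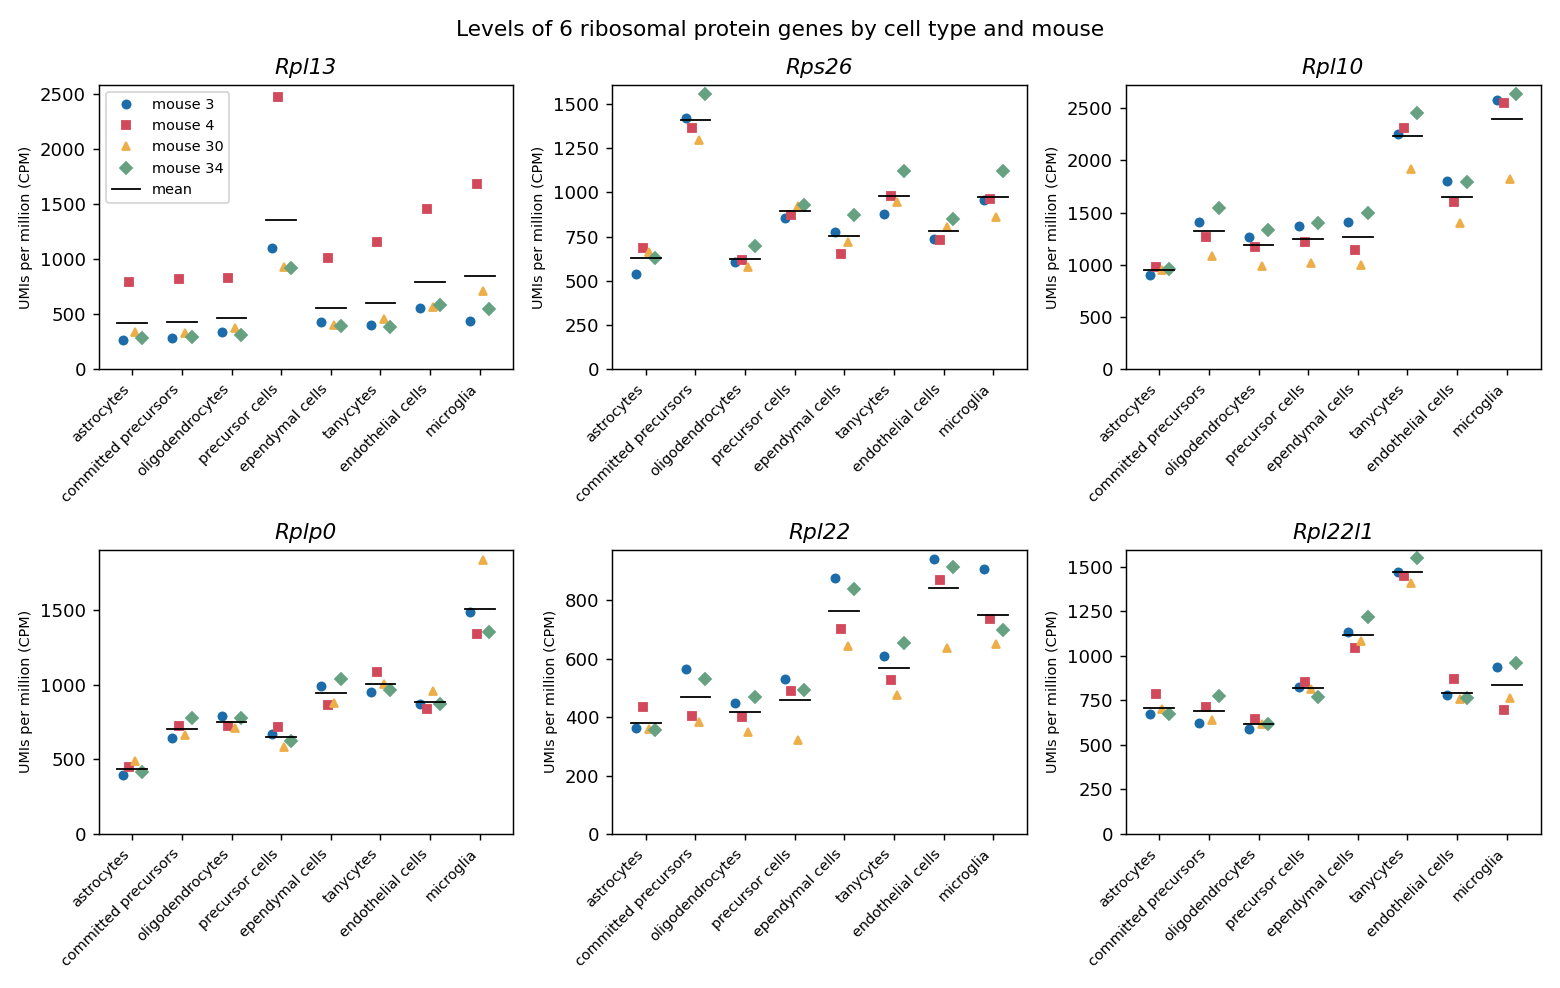
CPM of Rpl13, Rps26, Rpl10, Rplp0, Rpl22 and Rpl22l1 in 8 cell types (horizontal axis) for 4 mice (symbols) with the mean (line). Rpl13 is highest in oligodendrocyte precursor cells within each mouse, with mouse 4 above the others in every type, and Rpl22l1 is highest in tanycytes, at 1406 to 1547 CPM.

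Along the oligodendrocyte lineage, precursor cells divide, committed precursors leave the cycle and oligodendrocytes form myelin. Committed precursors had 18 of the 84 genes higher than precursor cells (21.4%; 11.6% of all genes) and 7 lower (8.33%; 15.5% of all genes). Without mouse 3 or mouse 34 the count of higher genes was 9, without mouse 30 it was 10, and with no mouse in the model 4, and without mouse 34 the count of lower genes was 4. The median of 0.09 (-0.09 over all genes) turned to -0.03 with library totals, under which 7 genes were higher and 22 lower. Of the 25 called genes, 20 had CPM in the direction of the call in 4 of 4 mice. The direction over the group thus rests on the scaling. Relative to the median of all genes, the genes stood 0.18 higher under either of these scalings, where that median was over 12227 genes. With sums thinned to equal totals they stood at -0.04, but there the median was over only 3981 genes (-0.0079). The -0.04 thus has another reference, and the part of depth in it was not tested.

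A single gene stood out. Rpl13, of the large subunit (chr8:123102350-123105244, GRCm38.p6), was at 283, 818, 325 and 293 CPM in committed precursors and at 1097, 2468, 926 and 915 CPM in precursor cells. The log2 fold change was -1.57 (SE 0.103, adjusted p = 2.08e-24), and within mice 3, 4, 30 and 34 the committed precursors had 0.258, 0.332, 0.352 and 0.321 of the CPM of precursor cells. The ranges did not overlap, although mouse 4 had the highest value in each. In precursor cells Rpl13 was also above every other of the 8 types within each mouse. Its last 400 bases share 87.7% of their words with transcripts of 11 other genes.

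Rps26 went the other way, with 1421, 1365, 1297 and 1558 CPM in committed precursors and 858, 873, 921 and 932 CPM in precursor cells (log2 fold change 0.78, SE 0.0943, adjusted p = 3.36e-11). Its level in oligodendrocytes was 607, 618, 576 and 700 CPM, below committed precursors in each mouse (log2 fold change -0.79, SE 0.0878, adjusted p = 4.83e-13). Rps26, a small-subunit protein at the exit of the messenger RNA, was thus highest in committed precursors, with no overlap to either side. Rps2 was at 179, 292, 239 and 159 CPM in committed precursors and 123, 262, 153 and 108 CPM in precursor cells (0.58, SE 0.161, adjusted p = 0.00309), overlapping across mice, and its call was lost without the mouse in the model and with thinned sums.

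Oligodendrocytes had 58 of the 84 genes higher than committed precursors (69.0%; 20.1% of all genes) and 3 lower (3.57%; 14.3% of all genes), with a median of 0.36 (0.17 over all genes). With library totals the counts were 19 and 22 and the median -0.02 (-0.19 over all genes), so that the genes stood 0.19 and 0.18 above all genes under the 2 scalings. The CPM, which is not TMM scaled, was in the direction of the call in 4 of 4 mice for 31 of the 61 called genes, and against it in 4 of 4 mice for 6. Rpl10, called at 0.23 (adjusted p = 0.0344), was at 1191 ± 151 CPM in oligodendrocytes and 1326 ± 199 CPM in committed precursors.

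Some genes were higher under either scaling. Rps15, of the small subunit, was at 1720, 1546, 1545 and 1933 CPM in oligodendrocytes and 1314, 1256, 957 and 1337 CPM in committed precursors (0.84, SE 0.0916, adjusted p = 2.29e-13). Rpl17 was at 1501, 1216, 1325 and 1581 CPM against 1053, 1114, 919 and 1094 CPM (0.80, SE 0.0924, adjusted p = 2.29e-12). Both were lower in committed precursors than in precursor cells as well (-0.35 and -0.36). The 3 lower genes were Rps26, Rps27l (-0.52, SE 0.115, adjusted p = 0.0001) and Rpl27 (-0.32, SE 0.0982, adjusted p = 0.00612), the last named after its values were seen.

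Of the 17 largest changes reported across the 6 comparisons, 16 kept their call under every alternative run for them, the exception being Rps2, and in 14 the mice of the types did not overlap. Rps19bp1 was not tested in the fit of the 2 types or with thinned sums, where the filter on low counts removed it. When each gene was scaled to the sum of the 86 genes instead of the library, the calls fell into both directions: 20 higher and 16 lower in tanycytes against astrocytes, 25 and 17 in endothelial cells against astrocytes, and 9 and 15 in tanycytes against ependymal cells. This scale brings the genes near 0 as a group by construction. Of all 12227 tested genes, 1057 were higher and 6544 lower on it in tanycytes against astrocytes. For endothelial cells against astrocytes these were 1483 and 6327, and for tanycytes against ependymal cells 1135 and 3140. Rpl10 remained higher in tanycytes on that scale than in astrocytes (0.61, adjusted p = 5.75e-10) and than in ependymal cells (0.69, adjusted p = 2.54e-11).

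Of the stalk proteins, Rplp1 and Rplp2 bind Rplp0 as pairs and reach out to the elongation factors. Between tanycytes and astrocytes the log2 fold changes were 1.18 for Rplp0, 0.73 for Rplp2 (adjusted p = 1.10e-12) and 0.32 for Rplp1 (adjusted p = 0.000904). Against ependymal cells, astrocytes were lower in Rplp0 (-1.05) and Rplp2 (-0.87, adjusted p = 8.36e-16), and Rplp1 was at -0.12 with no call. Rplp1 was higher in committed precursors than in precursor cells (0.40, adjusted p = 0.000216), where Rplp0 (0.23, adjusted p = 0.115) and Rplp2 (0.22, adjusted p = 0.0591) had no call. Among the 8 well-filled types, the share of the 3 stalk genes was highest in microglia, at 0.970%, 0.820%, 0.843% and 0.989% of UMIs, and 0.474% ± 0.0169 in astrocytes. Differences between genes within a comparison were not tested.

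Rpsa, the small-subunit protein also known as a laminin receptor, was at 1148 ± 59.3 CPM in microglia, 960 ± 120 CPM in oligodendrocytes, 886 ± 85.9 CPM in committed precursors, 870 ± 52.2 CPM in tanycytes, 857 ± 47.9 CPM in endothelial cells, 824 ± 49.4 CPM in precursor cells, 823 ± 91.2 CPM in ependymal cells and 683 ± 42.2 CPM in astrocytes. The means of neighbours in this order from oligodendrocytes to ependymal cells lay within an SD of each other. In the fit, which compares types within mice, Rpsa was higher in oligodendrocytes than in committed precursors (0.50, adjusted p = 1.68e-06, higher in 4 of 4 mice), a call lost with library totals (0.12, adjusted p = 0.280) and with thinned sums (0.28, adjusted p = 0.288). It was also higher than in astrocytes in tanycytes (0.32, adjusted p = 0.000490) and in endothelial cells (0.30, adjusted p = 0.00290).

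Other paralogues were less abundant than their partners. Rps27l had 0.218 ± 0.0672 (SD, n = 4) of the UMIs of Rps27 in committed precursors, 0.142 ± 0.0331 in precursor cells and between 0.0548 and 0.0902 in the other 6 types. Rpl36al, which encodes a large-subunit protein like that of Rpl36a, had 0.686 ± 0.157 of the UMIs of Rpl36a in committed precursors and 0.294 ± 0.0308 in ependymal cells. It was higher in committed precursors than in precursor cells (0.44, SE 0.112, adjusted p = 0.00131), where Rpl36a was at -0.10 (adjusted p = 0.506). The 3′ end of Rpl36a is shared over its whole length with transcripts of 8 other genes. Rpl7l1, a nucleolar relative of Rpl7, had 0.0724 ± 0.00822 of the UMIs of Rpl7 in precursor cells and 0.0249 ± 0.00614 in ependymal cells, from 840 UMIs in all. Rpl3 had its highest mean in microglia, at 1427 ± 83.3 CPM, and its lowest in astrocytes, at 757 ± 105 CPM, while its muscle paralogue Rpl3l was at 0.

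Rps27rt, the copy of Rps27 whose start shares the run printed above, had nearly the same part of the UMIs of Rps27 in each type, between 0.0922 and 0.102 as means of 4 mice. It differed by mouse instead: the tanycytes of mice 3, 4, 30 and 34 had 390, 355, 735 and 369 CPM, and mouse 30 was highest in each of the 8 types. Its 3′ end shares 90.8% of its words with other genes, and that of Rps27 72.7%, and the part of shared reads in these levels was not tested.

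Mice also differed in other genes of the set. In all cells, mice 3, 4, 30 and 34 had 394, 1063, 457 and 386 CPM of Rpl13. Rps29 was at 2712, 6120, 4733 and 3984 CPM in astrocytes and at 5306, 9608, 8324 and 8458 CPM in microglia, lowest in mouse 3 and highest in mouse 4. Rps2 in tanycytes was at 194, 351, 243 and 173 CPM. Rpl37, of the large subunit, was at 2308, 3861, 3632 and 2982 CPM in astrocytes. The block for the mouse takes out of the fit what a mouse has in common over its types, but not a difference between types that varies by mouse, as in the medians by mouse given above. The biological coefficient of variation of the fit is the spread left after the mouse block, pooled over types and drawn toward that of other genes. It therefore does not measure the differences between mice given above. It had a median of 0.0664 over the 84 genes and 0.0661 over all tested genes. It was largest among genes above 100 CPM for Rplp1 (0.0710), Rpl35a (0.0706) and Rpl9 (0.0702).

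Other subunit proteins carry symbols outside the rule. Fau, which encodes a small-subunit protein fused to a ubiquitin-like one, was at 3688 ± 355 CPM in microglia, 2830 ± 275 CPM in endothelial cells, 2369 ± 242 CPM in tanycytes and 1548 ± 104 CPM in astrocytes, and was higher in tanycytes (0.58, adjusted p = 2.11e-09) and endothelial cells (0.85, adjusted p = 3.59e-15) than in astrocytes. Gnb2l1, the gene of the small-subunit scaffold RACK1, was higher than in astrocytes in both as well (0.55 and 1.07).

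Genes that work with ribosomes were counted from 3 lists, the first of which also holds Fau and Gnb2l1. Npm1 stands in the first and the second. Elongation factors and further messengers with a pyrimidine tract were 17 higher and 0 lower of 19 in tanycytes against astrocytes (23.1% and 20.8% of all genes; median 0.58). In endothelial cells against astrocytes 19 of 19 were higher (23.8% of all genes; median 0.81), where Tpt1 reached 1.63 (adjusted p = 4.74e-28) and Eef1a1, which brings aminoacyl-tRNA to the ribosome, 1.04 (adjusted p = 3.53e-18). Between tanycytes and ependymal cells (15.3% of all genes higher in tanycytes and 21.3% lower) they split, with 10 higher, among them Eef1a1 (0.34, adjusted p = 0.000715), and 4 lower, among them Tpt1 (-0.31, adjusted p = 0.00376). Nucleolar genes of ribosome assembly were 11 higher of 21 in tanycytes against astrocytes and 1 higher and 4 lower against ependymal cells (median -0.08). From committed precursors to oligodendrocytes they were 0 higher and 6 lower (20.1% and 14.3% of all genes; median -0.21).

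Of the proteins of the mitochondrial ribosome, 75 were tested. In tanycytes against astrocytes 26 were higher and 4 lower (23.1% and 20.8% of all genes; median 0.16), and in endothelial cells against astrocytes 2 were higher and 7 lower (23.8% and 23% of all genes; median -0.13). Between astrocytes and ependymal cells 11 were higher and 13 lower in astrocytes (22.8% and 26.1% of all genes; median 0.03). The difference of these genes from the cytosolic ones was not tested.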

How the data were processed

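Single-cell RNA was measured in hypothalami of R50E-treated ob/ob mice. The authors deposited raw UMI counts per gene and cell, and for each cell its library, a cell type label, its UMIs and its mitochondrial and ribosomal percentages of UMIs. The submitters' processing notes name Cell Ranger 1.2 and Seurat. For alignment settings, doublets and the making of the labels, details were not given in the sources used here, and no doublet step was added. The authors also deposited depth-corrected counts, which were not used here. Cells of 12 libraries (50172 cells) that match no labelled sample were not used, and 0 columns of per-sample values were left aside. Cells were matched to the counts by order, and the UMIs and detected genes equalled the listed totals in 20151 of 20151 cells. Cells held 487 to 13499 UMIs (medians of 909 to 1066 by mouse).

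Counts were summed by mouse and type, with at least 20 cells a sum. Genes were tested in edgeR 4.0.16 (R 4.3.3) by the quasi-likelihood F test with type and mouse as terms, TMM scaling, filterByExpr and Benjamini-Hochberg adjustment over 12227 genes. A type pairs with another within the same mouse, so the mouse was kept as a block. Sums of different types share a mouse. The p-values rest on a spread pooled over all sums of the fit and drawn toward that of other genes. They do not rest on how a single comparison varies over the 4 mice alone. The fit was tested on simulated data. Shares were compared by a two-sided exact sign-flip permutation test over mice (6 comparisons, whose raw p-values cannot pass after adjustment). CPM values are not TMM scaled, whereas fitted fold changes are. Alternatives were other scalings (RLE, library totals, TMM without these genes, the sum of these genes), DESeq2 1.42.0, no low-count filter, no mouse block, at least 50 cells, a fold limit of 0.5 (log2), only the 2 types, thinned sums and each mouse left out, and for shares other denominators and gene lists. Shared 3′ ends were found with blastn 2.17.0+ as identical runs of 60 bases. Other steps used numpy 2.4.6, scipy 1.17.1 and pandas 2.3.3.

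The genes and lists were chosen with earlier results of these data known. Named by rule were the stalk genes, Rpsa, Rps19bp1 and the paralogues with their partners, in each comparison the 3 called genes of largest change, the 5 of highest and 5 subunit genes of lowest CPM, and the 3 of largest dispersion from 100 CPM. Rps21, Rps29 and Rpl37 in comparisons where they had no call, the other lower genes of a comparison where 5 or fewer were lower, and genes outside the set were named after their values were seen. Results of some genes that the rule or the lists would name are not reported here, and they remain in the counts over genes.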

Additional observations from a re-analysis of the deposited data

Results flagged for a closer look

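Of 41 values screened over the 4 mice, 3 had a mouse far from the others by Dixon's criterion, and chance sets apart about 1 in 20 groups (5%). Over all cells, mouse 4 had 1063 CPM of Rpl13, and mice 3, 30 and 34 had 394, 457 and 386 CPM. For Rps27rt mouse 30 had 524 CPM, and mice 3, 4 and 34 had 277, 262 and 256 CPM. For Rpl36a mouse 3 had 974 CPM, the lowest, and mice 4, 30 and 34 had 1086, 1068 and 1072 CPM. The cause of these differences was not tested.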

How the results depend on the processing

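Against astrocytes, the direction of the genes as a group held in tanycytes and endothelial cells under every alternative run other than scaling to the genes themselves. By construction, scaling to the genes brings them near 0 as a group. That scaling left medians of 0.0176 in tanycytes against astrocytes (20 higher, 16 lower), 0.0499 in endothelial cells against astrocytes (25 higher, 17 lower), -0.0323 in astrocytes against ependymal cells (17 higher, 20 lower), 0.0192 in tanycytes against ependymal cells (9 higher, 15 lower) and -0.0235 in oligodendrocytes against committed precursors (21 higher, 22 lower), and 17 lower in committed precursors against precursor cells. With the cells above 18% left out, the 6 share differences kept their sign. Cells were left out there by nearly the measure that is compared, so this cannot show what cells above 20% would change. Values are given next where counts or medians moved, and the cause was not tested beyond the construction of each alternative.

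In tanycytes against ependymal cells (42 higher, 2 lower), 5 were higher and 0 lower beyond a log2 fold change of 0.5, 23 higher and 7 lower with RLE, 25 and 7 with DESeq2, and 10 and 0 with no replicate block. Lower were 5 with library totals, 4 with at least 50 cells and 0 with thinned sums. Leaving out a mouse gave 21 (without mouse 30) to 44 higher and 2 to 4 (without mouse 4) lower. In astrocytes against ependymal cells, 37 were lower beyond 0.5 and 37 with thinned sums. In endothelial cells against astrocytes, 0 were lower in the fit of the 2 types and 0 with thinned sums.

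In committed precursors against precursor cells (18 higher, 7 lower), 2 were higher and 1 lower beyond 0.5, and 4 and 1 with no replicate block. Library totals gave 7 higher and 22 lower (median -0.0292), and thinned sums 7 and 22 (median -0.0502). Lower were 13 with RLE, 14 with DESeq2 and 23 in the fit of the 2 types (median 0.00211). Leaving out a mouse gave 9 (without mouse 3 or 34) to 15 higher, with 10 without mouse 30, and 4 (without mouse 34) to 8 lower. In oligodendrocytes against committed precursors (58 higher, 3 lower, median 0.36), 31 were higher beyond 0.5. Lower were 8 with RLE (median 0.24), DESeq2 (0.24) and in the fit of the 2 types (0.25). Library totals gave 19 higher and 22 lower (median -0.0151), and thinned sums 9 and 1 (0.14). The median ranged from 0.32 (without mouse 34) to 0.41 (without mouse 4).

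The share of oligodendrocytes less that of committed precursors was 0.713 points without mitochondrially encoded genes in the total, 0.963 without the 10 most abundant other genes, 0.311 as a mean of single cells, and -0.0740 to 0.148 with a mouse left out. That of committed precursors less precursor cells was -1.23 without mitochondrially encoded genes. Of single genes, Rpl10 in oligodendrocytes against committed precursors turned to -0.15 with library totals and -0.26 with thinned sums, Rpl3 to -0.0148 with library totals, and in astrocytes against ependymal cells Rpl7a turned to 0.00165 and Rps26 to 0.00515 with thinned sums. For named genes, 1506 results kept direction and call, 163 lost the call and 5 reversed.

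Each group was 4 mice of a single treatment, sums of microglia and of committed precursors were small, vascular leptomeningeal cells entered the fit from 1 mouse, and cells above 20% in the deposited percentage were not among those analysed here.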

Other observations

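Microglia, the immune cells of the brain, were in none of the 6 comparisons, and their values are a description of 380 cells. In mice 3, 4, 30 and 34 they had 1491, 1341, 1835 and 1356 CPM of Rplp0, above its values in each of the other 7 well-filled types. Rps29 was at 5306, 9608, 8324 and 8458 CPM. Rpl10 was at 2578, 2547, 1825 and 2637 CPM, beside 2254, 2307, 1921 and 2459 CPM in tanycytes, and the types overlapped. Rpl22l1, highest in tanycytes, was at 937, 693, 760 and 960 CPM. The haemoglobin genes Hbb-bs and Hba-a1 summed to 1911, 89.4, 1054 and 152 CPM in microglia, and their part in these levels was not tested.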
